A study of Mus musculus with 22 samples.

Results

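The loci described here are 7208 places in the mouse liver genome where a peak of histone H3 acetylated at lysine 27 (H3K27ac) overlapped a peak of H3 monomethylated at lysine 4 (H3K4me1) by at least 1 base. They are 7208 of the 11235 H3K27ac union peaks, regions that the authors joined over both diets, and the other 4027 touched no H3K4me1 union peak. From the other side, 7811 of 16834 H3K4me1 union peaks touched an H3K27ac peak. The values are from chromatin immunoprecipitation and sequencing of whole liver of wild type C57BL/6J mice that ate a high-fat diet (S3282, Bioserve) for 16 weeks from the age of 8 weeks. There were 3 libraries of H3K27ac (Abcam antibody) and 3 of H3K4me1 (Millipore antibody). Livers of chow-fed mice of the same strain and genotype (Prolab Isopro RMH 3000) gave 3 libraries of each mark and 2 of H3 trimethylated at lysine 4 (H3K4me3). The mice were fasted overnight and killed at the age of 24 weeks, and each liver was powdered while frozen. The labels name no sex and do not say which libraries share an animal, so the p-values below measure the spread between these libraries.

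H3K27ac is laid down by the acetyltransferases p300 and CBP and marks promoters and enhancers in use. H3K4me1 is laid down mainly by MLL3 and MLL4 and marks enhancers, whether in use or only primed, and the flanks of promoters. H3K4me3 marks active promoters, where it takes the place of H3K4me1 close to the transcription start. A locus that carries both H3K27ac and H3K4me1 is thus read as an active enhancer or as a promoter with its flanks. In liver such loci lie around genes of metabolism and of secreted plasma proteins. Positions are those of the mouse build mm9 as the authors' files give them, and the genes at these positions were not analysed here.

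The 3 H3K27ac libraries held 2037101, 4374345 and 3923847 counts in their peak table, and the 3 H3K4me1 libraries 5487592, 6931725 and 6492247. A median locus held between 163 and 348 H3K27ac counts, and between 303 and 397 H3K4me1 counts, depending on the library. No locus was lost to the minimum of 10 summed counts in each mark, and the lowest single counts were 17 for H3K27ac and 42 for H3K4me1. In the mRNA libraries of the same diet, 6 hepatocyte markers (Alb, Apoa1, Ttr, Serpina1a, Cps1 and Hnf4a) summed to between 83160 and 93932 CPM (counts scaled to a common library total). Markers of Kupffer cells (4 of 5 genes were in the table), sinusoidal endothelium and stellate cells reached at most 279 CPM per list, bile duct markers 64.6 CPM and lymphocyte markers 2.76 CPM. Exocrine pancreas markers summed to 9.68 to 128 CPM, highest in replicate 2, with Prss1 at 0 in every library, and the part of such cells in the chromatin results was not tested. The chromatin is from bulk tissue, so a change in the share of a cell type and a change per cell cannot be told apart.

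Levels are given as CPM per kb, the CPM of the scaled table total divided by the peak length in kb, each mark over its own peak. H3K27ac had a median of 17.9, 18.2 and 18.1 CPM per kb in its 3 libraries, and H3K4me1 one of 14.1, 14.6 and 14.3. Over the 3 libraries H3K27ac ran from 11.8 CPM per kb at the 5th percentile of loci to 27.3 at the 95th, a 2.32-fold span. For H3K4me1 the same percentiles were 9.997 and 20.7, a 2.07-fold span. The median standard deviation (SD) between replicate libraries was 0.12 log2 units for H3K27ac and 0.13 for H3K4me1. Between loci it was 0.37 for H3K27ac and 0.32 for H3K4me1. The loci thus differed more from each other than the libraries of a mark did at a typical locus.

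The levels of the marks went together only in part. Across the 7208 loci the Spearman correlation of H3K27ac with H3K4me1 was 0.42 (Pearson 0.43), a description in which points share library, depth and peak calling and which carries no test. Pairs of libraries of the same mark correlated far more closely, between 0.79 and 0.92 for H3K27ac and between 0.69 and 0.85 for H3K4me1. Pairs of different marks lay between 0.19 and 0.53. H3K4me1 replicate 1 stood apart here. It correlated at 0.53, 0.45 and 0.51 with H3K27ac replicates 1 to 3, while H3K4me1 replicate 2 gave 0.19, 0.28 and 0.28, and replicate 3 gave 0.29, 0.39 and 0.40. Without H3K4me1 replicate 1 the correlation of the mean levels was 0.33, and without replicate 2 it was 0.48. The chow libraries of the same loci gave 0.46.

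Sorting the loci by 1 mark shows how far the other followed. From the lowest to the highest quintile of H3K4me1, median H3K27ac was 14.9, 16.4, 17.7, 19.3 and 21.2 CPM per kb, while median H3K4me1 itself was 10.8, 12.7, 14.3, 16.1 and 19.1. From the lowest to the highest quintile of H3K27ac, median H3K4me1 was 12.2, 13.6, 14.6, 15.5 and 16.2. Each mark was thus higher at every step of the other. Its range was narrower than that of the mark the loci were sorted by. Sorting brings this about for marks of similar spread that correlate only in part, so it is no separate result. Of all loci, 553 were in the highest quintile of both marks and 634 in the lowest quintile of both. The mixed corners were smaller: 148 loci combined the highest quintile of H3K27ac with the lowest of H3K4me1, and 50 the lowest of H3K27ac with the highest of H3K4me1. Of the 148, 147 (99.3%) overlapped an H3K4me3 peak of chow liver, and of the 50, 6 (12%) did, against 48.2% of all loci. Of the 553 loci high in both marks 412 (74.5%) did, and of the 634 low in both 59 (9.31%). A low share was thus found in both corners with the lowest H3K27ac, whether H3K4me1 was high or low.

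**Figure D1:**
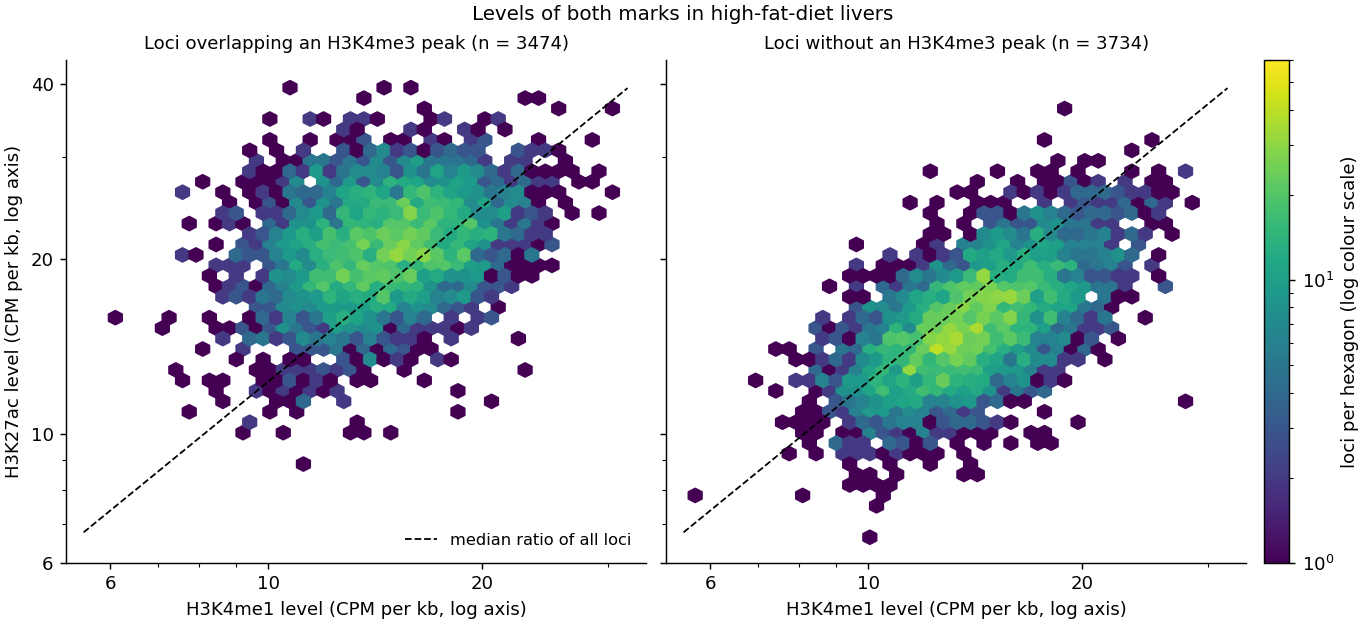
Levels of H3K27ac (vertical) against H3K4me1 (horizontal), both in CPM per kb on log axes as means of 3 high-fat-diet libraries, for 3474 loci that overlap a chow H3K4me3 peak (left) and 3734 that do not (right). Colour gives the number of loci per hexagon and the dashed line the median ratio of all loci: most H3K4me3 loci lie above it with a loose cloud (Spearman 0.29), most others below it with a tighter one (Spearman 0.59).

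H3K4me3 was used to part the loci because the choice of loci did not draw on it. It was profiled in chow livers only, so it stands for the promoters of chow liver. Of the 7208 loci, 3474 (48.2%) overlapped one of its 13065 peaks. Loci with H3K4me3 had more H3K27ac and nearly the same H3K4me1 as the others. Their median H3K27ac was 21.7, 20.7 and 21.1 CPM per kb in the 3 libraries, against 15.2, 15.8 and 15.5 at the 3734 loci without H3K4me3. Their median H3K4me1 was 15.1, 14.4 and 14.6, against 13.2, 14.9 and 14.1. H3K27ac was higher at H3K4me3 loci in 3 of 3 libraries, and H3K4me1 in 2 of 3, with replicate 2 the other way.

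On the log2 scale the contrast of H3K4me3 loci with other loci was 0.51, 0.39 and 0.44 in the H3K27ac libraries and 0.19, −0.05 and 0.05 in the H3K4me1 libraries. The means were 0.45 ± 0.06 and 0.06 ± 0.12 (SD, n = 3 each), a difference of 0.38 or 1.31-fold. The 3 H3K27ac values lay above all 3 H3K4me1 values, and the exact two-sided permutation test over libraries gave p = 0.1, the smallest that 3 against 3 libraries allow. With 1 library left out at a time the difference ran from 0.33 to 0.45. In chow it was 0.25, with contrasts of 0.40 ± 0.02 for H3K27ac and 0.16 ± 0.05 for H3K4me1 (SD, n = 3 each, exact permutation p = 0.1). The marks also followed each other less closely across loci with H3K4me3 (Spearman 0.29, n = 3474) than across those without (0.59, n = 3734), values that were 0.29 and 0.54 in chow.

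**Figure D2:**
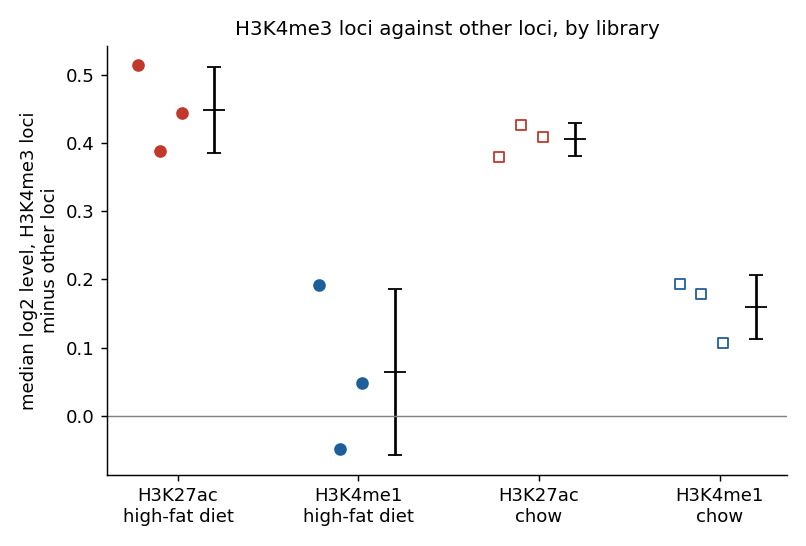
Median log2 level at loci with H3K4me3 minus that at the other loci, 1 point per library (red for H3K27ac and blue for H3K4me1, filled for the high-fat diet, open for chow), with mean and SD of 3 libraries in black. The H3K27ac points of the high-fat diet lie between 0.39 and 0.51 and its H3K4me1 points between −0.05 and 0.19.

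To ask which loci favour 1 mark, the log2 ratio of H3K27ac to H3K4me1 was set to 0 at the median locus, since the constant between 2 antibodies and 2 peak sets is arbitrary and cannot be told apart from biology. Before this centring the median ratio was 1.23-fold (log2 0.30), and log2 0.01 if the pooled tag totals of the peak lists replaced the table totals. The centred ratio had an SD of 0.37 across loci, a 5th to 95th percentile range of −0.54 to 0.69, and a median standard error (SE) of 0.12 per locus. Of all loci, 88.6% lay within 1.5-fold of the median locus. Ratios over 2-fold were estimated at 82 loci in favour of H3K27ac and at 12 in favour of H3K4me1.

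Few loci passed a test for a ratio more than 2-fold away from the median locus. By edgeR's quasi-likelihood test against a 2-fold margin, 1 locus favoured H3K27ac (0.0139% of those tested) and 0 favoured H3K4me1 (0%). At an unadjusted p under 0.05 there were 33 and 4, and DESeq2 and limma called 0 in either direction. With the replicate number as a block, 3 and 1 passed. Without H3K4me1 replicate 1, 4 and 1 passed, and without any other single library no locus favoured H3K27ac, while 1 favoured H3K4me1 without H3K27ac replicate 3. Against a 1.5-fold margin, chosen after these values were seen, 104 loci favoured H3K27ac (1.44%) and 14 favoured H3K4me1 (0.194%), or 158 and 35 with the block. These counts were 151 and 29 without H3K4me1 replicate 1, 53 and 8 without replicate 2, and 65 and 8 without replicate 3. Without H3K27ac replicate 1, 2 or 3 they were 78 and 14, 81 and 7, and 57 and 6. Without a margin, also chosen later, 1607 loci lay above the median ratio (22.3%) and 1328 below it (18.4%) at an adjusted p under 0.05. Without the centring this split became 3731 and 261. The libraries of the marks did not overlap after centring at 1915 loci with H3K27ac higher (26.6%) and at 1637 with H3K4me1 higher (22.7%).

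Loci on either side of the median ratio differed in H3K4me3, in width and in both levels. Of the 1607 loci above it, 1421 (88.4%) overlapped an H3K4me3 peak, and of the 1328 below it 263 (19.8%) did, against 48.2% of all loci. All 104 loci past the 1.5-fold margin toward H3K27ac carried H3K4me3, and 3 of the 14 toward H3K4me1. Put the other way, 40.9% of H3K4me3 loci lay above the median ratio and 7.57% below it, while 4.98% of the other loci lay above and 28.5% below. The favoured mark was high and the other low on each side, a pattern that the choice of loci by their ratio favours. Loci above the median ratio had a median of 23.0 CPM per kb of H3K27ac and 12.8 of H3K4me1, and loci below it 14.8 of H3K27ac and 16.7 of H3K4me1. Their H3K27ac peaks had a median width of 3823 and 5396.5 bases.

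The ratio was higher where the H3K4me3 peak was stronger, which is a description without a test. Its fold enrichment over background is the authors' value, from the 2 chow libraries pooled. From the weakest to the strongest quartile of H3K4me3 loci the median log2 ratio was 0.06, 0.22, 0.26 and 0.29. H3K27ac itself hardly changed over these quartiles, with medians of 20.5, 21.8, 21.6 and 20.6 CPM per kb. H3K4me1 was 15.9, 15.0, 14.5 and 13.3 CPM per kb. The quartiles also differed in the median width of the H3K27ac peak, with 5227, 4748.5, 4296 and 3642 bases. Fold and width were not taken apart. Across the 3474 loci H3K4me3 fold had a Spearman correlation of 0.01 with H3K27ac and of −0.29 with H3K4me1, again as a description. The H3K4me1 peaks nonetheless reached over most of the H3K4me3 bases: at the median locus 100% of them were inside an H3K4me1 peak, and at 12.6% of 3438 loci less than 50% were.

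**Figure D3:**
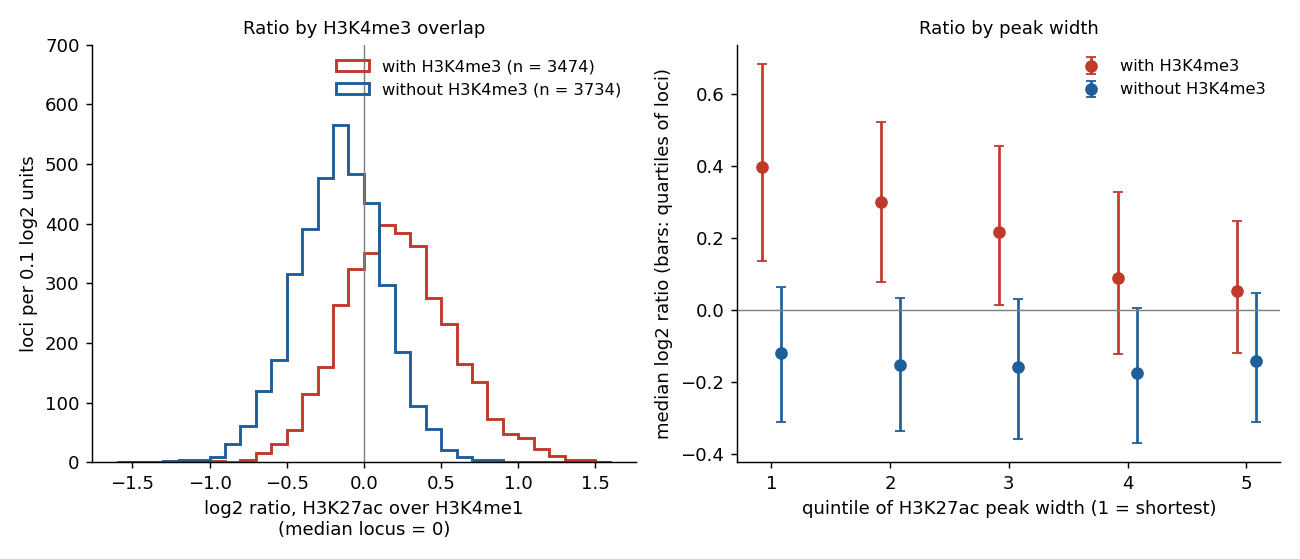
Left, number of loci by centred log2 ratio of H3K27ac to H3K4me1 in high-fat-diet livers, for loci with and without a chow H3K4me3 peak. Right, median ratio (bars, quartiles of loci) by quintile of H3K27ac peak width: with H3K4me3 it goes from 0.40 in the shortest to 0.05 in the widest quintile, and without H3K4me3 it stays between −0.18 and −0.12.

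The ratio varied with peak width at H3K4me3 loci and hardly at the others, again without a test. From the shortest to the widest quintile of H3K27ac peaks, the median log2 ratio with H3K4me3 was 0.40, 0.30, 0.21, 0.09 and 0.05, and without H3K4me3 −0.12, −0.15, −0.16, −0.18 and −0.14. In the shortest quintile 56.5% of H3K4me3 loci lay above the median ratio, against 25.7% in the widest quintile. Their median H3K4me3 fold was 38.6 in the shortest and 30.1 in the widest quintile, so the trends by width and by fold are not separate. The larger difference was in H3K4me1, whose median at H3K4me3 loci was 13.6 CPM per kb in the shortest and 16.3 in the widest quintile, while that of H3K27ac was 22.6 and 20.9. Peak widths of the marks were related (Spearman 0.74), with medians of 4501 bases for H3K27ac and 4014.5 for H3K4me1.

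Median ratios differed less by the way the peaks lay over each other. In 6533 loci there was 1 H3K4me1 peak, and in 675 there were up to 5, whose counts and lengths were summed. Loci were not fully separate, since 148 H3K4me1 peaks were shared by 296 of them. The H3K4me1 peak reached past one end of the H3K27ac peak at 2800 loci, lay inside it at 2636 and enclosed it at 1097. At the median locus 91.3% of the H3K27ac peak was covered by H3K4me1. Median ratios were 0.04, −0.05 and 0.02 in these 3 arrangements and 0.04 where there were several peaks. Within each arrangement the H3K4me3 loci were higher, with medians between 0.15 and 0.24, than the other loci, with medians between −0.21 and −0.08. Relative length went with the ratio about as much as width did. The Spearman correlation of the ratio was 0.15 with H3K4me1 length over H3K27ac length, and −0.16 with H3K27ac width. By chromosome the median ratio stayed between −0.05 and 0.04.

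The rule for naming loci took the 12 highest and 12 lowest ratios past the test. Only 1 locus passed the 2-fold margin, so the 24 were taken from those past the test without a margin, a choice made after the values were seen. The 12 highest had ratios of 2.42-fold to 3.05-fold the median locus, H3K27ac between 22.3 and 41.0 CPM per kb and H3K4me1 between 6.26 and 14.0. All 12 carried H3K4me3, with folds from 25.8 to 84.0, and all 12 passed the 1.5-fold margin. The 12 lowest were 2.04-fold to 2.92-fold below the median locus, with H3K27ac between 8.01 and 14.5 CPM per kb and H3K4me1 between 10.4 and 30.7. Of these, 3 carried H3K4me3 and 11 passed the 1.5-fold margin. The 24 were chosen among loci whose centred libraries did not overlap between the marks. Their uncentred levels did not overlap either, which at the 12 highest follows from that choice and at the 12 lowest is favoured by it.

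**Figure D4:**
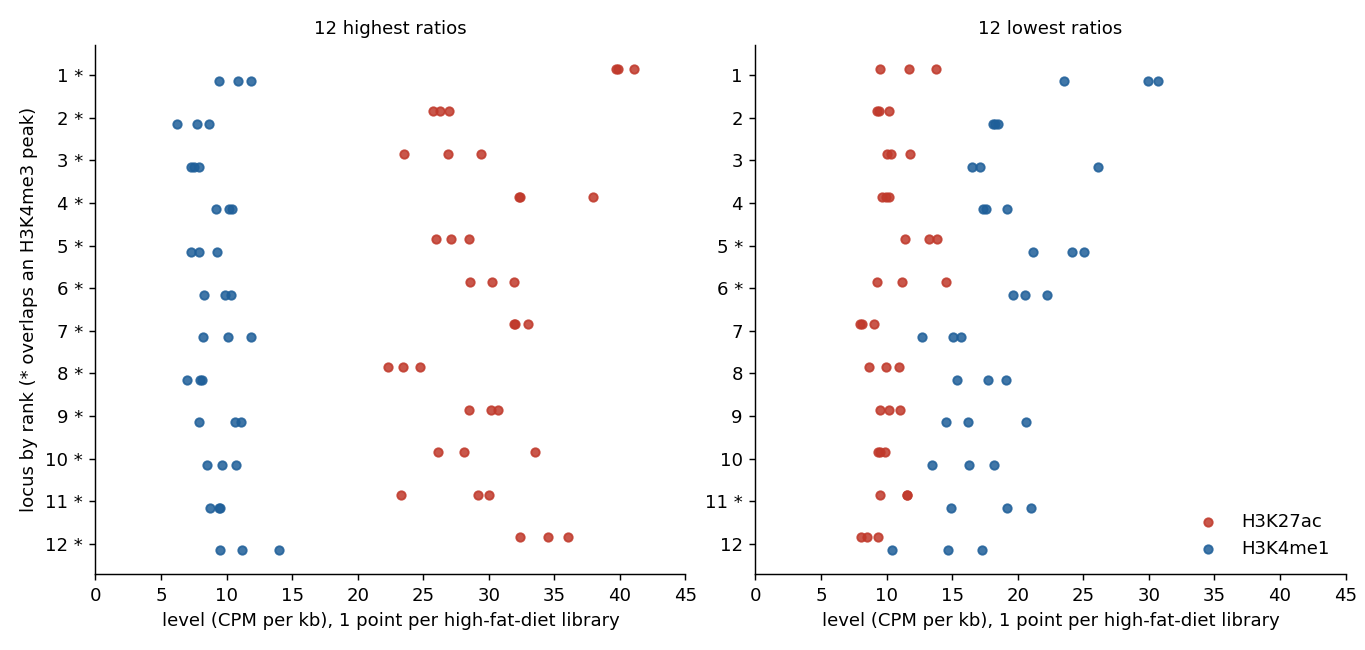
Levels in each high-fat-diet library, H3K27ac in red and H3K4me1 in blue, at the 12 loci with the highest (left) and the 12 with the lowest ratio (right), by rank from the top, with asterisks for loci that overlap an H3K4me3 peak. H3K27ac spans 22.3 to 41.0 CPM per kb on the left and 8.01 to 14.5 on the right. The marks stay apart at every locus, and the choice of loci required this of the centred levels.

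The highest ratio, and the only one past the 2-fold margin, was at chr7:119165964-119168132. It had 41.0, 39.7 and 39.9 CPM per kb of H3K27ac and 11.9, 9.41 and 10.9 of H3K4me1, a log2 ratio of 1.61 (SE 0.12; edgeR adjusted p = 0.0328 against the 2-fold margin). Its H3K27ac peak of 2169 bases also had the highest mean H3K27ac level of all loci, and its H3K4me1 was below the median of loci in each library. The locus ranked second, chr2:144094913-144097453, had a lower acetylation of 25.7, 26.3 and 26.99 CPM per kb with 8.66, 6.26 and 7.77 of H3K4me1 (log2 1.51, SE 0.13). At chr8:81031820-81034611 the strongest H3K4me3 fold of the 12, 84.0, went with 29.4, 23.5 and 26.9 CPM per kb of H3K27ac and 7.93, 7.51 and 7.30 of H3K4me1 (log2 1.498). The fourth, chr1:88599463-88601211, had 38.0, 32.4 and 32.3 of H3K27ac and 9.23, 10.4 and 10.2 of H3K4me1 (log2 1.46). In all 12 loci and every library H3K27ac was above its own median over loci.

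In 9 of the 12 the H3K4me1 peaks covered over 80% of the H3K27ac peak, and in the other 3 under 60%. Over all loci the median cover was 91.3%, and 11.2% of loci were covered under 50%, so a cover over 80% is not particular to these loci. The levels are over each mark's own peak, which need not be the same bases: at chr8:127385678-127388445 the H3K27ac peak of 2768 bases lay in an H3K4me1 peak of 6580 bases. At chr11:4996965-5002029 the covered share was 32.6%, with 30.2, 28.5 and 30.7 CPM per kb of H3K27ac and 11.1, 7.87 and 10.6 of H3K4me1.

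The lowest ratio was at chr19:47374654-47382234, where peaks of nearly equal width (7581 and 7606 bases) carried 9.47, 11.7 and 13.8 CPM per kb of H3K27ac and 23.6, 29.9 and 30.7 of H3K4me1. Its log2 ratio was −1.55 (SE 0.12; edgeR adjusted p = 0.0649 against the 2-fold margin), and it had no H3K4me3. In chow livers it had 20.2, 17.4 and 19.1 CPM per kb of H3K27ac and 28.6, 30.2 and 30.1 of H3K4me1, so the diets did not overlap in H3K27ac and did overlap in H3K4me1. A second wide pair, chr19:37768425-37774271, had 11.4, 13.9 and 13.3 of H3K27ac against 21.1, 24.2 and 25.0 of H3K4me1 (log2 −1.15), with a weak H3K4me3 peak of 6.32-fold. At chr12:21149031-21156344 the values were 9.89, 9.54 and 9.34 of H3K27ac and 13.5, 18.2 and 16.3 of H3K4me1 (log2 −1.04).

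Of the 12 lowest loci, 8 held a shorter H3K4me1 peak inside the H3K27ac peak, and in 7 of the 12 H3K4me1 covered under 60%. Such an inner peak was held by 36.6% of all loci, 38.6% of the 1328 below the median ratio and 26.1% of the 1607 above it. Among loci without H3K4me3, 25.2% of those holding an inner peak lay below the median ratio, against 39.8% of those enclosed by H3K4me1. The arrangement is thus a trait of these 12 more than of loci with low ratios. Where H3K4me1 covers only a part, the level of H3K27ac is averaged over bases that H3K4me1 is not. The extreme was chr16:94915838-94920233, where an H3K4me1 peak of 511 bases lay in an H3K27ac peak of 4396 bases. It had 11.7, 10.02 and 10.3 CPM per kb of H3K27ac and 17.1, 16.5 and 26.2 of H3K4me1, the last with replicate 3 well above the others (log2 −1.21, SE 0.19). At chr14:64816142-64821190, with 1744 and 5049 bases, the libraries lay closer together, with 9.25, 9.45 and 10.2 of H3K27ac and 18.3, 18.1 and 18.5 of H3K4me1 (log2 −1.22). When a locus needed 50% reciprocal overlap of 1 peak of each mark, 5827 loci remained, and 2 favoured H3K27ac and 1 favoured H3K4me1 at the 2-fold margin.

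The loci with the highest level of each mark were different loci. The 5 highest in H3K27ac all carried H3K4me3 and were 1901 to 3887 bases wide. After the one on chromosome 7, chr11:22757650-22761190 had 38.8, 39.5 and 40.2 CPM per kb of H3K27ac and 14.6, 13.3 and 15.1 of H3K4me1, which is close to the median of H3K4me1. The third was chr13:37916415-37920301 with a log2 ratio of 1.02. The fifth was chr2:10001008-10002908 with one of 1.14, where an H3K4me1 peak of 6309 bases covered 8.31% of an H3K27ac peak of 1901 bases, so the ratio there sets nearly separate stretches side by side. Of the 5, the fourth, chr1:193047112-193049569, was also in the upper range of H3K4me1, with 41.4, 35.4 and 35.4 of H3K27ac and 24.0, 22.1 and 25.5 of H3K4me1 (log2 0.34, SE 0.11, edgeR adjusted p = 0.0205). That call ended without H3K27ac replicate 1 (adjusted p = 0.0796) and without H3K4me1 replicate 2 (adjusted p = 0.104).

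The 5 loci highest in H3K4me1 were mostly wide, from 3358 to 27994 bases, and 4 of them lay below the median ratio. The highest, chr4:139125616-139144726, had 25.7, 26.2 and 27.3 CPM per kb of H3K27ac and 29.0, 31.0 and 31.9 of H3K4me1 (log2 −0.51, SE 0.07). The second, chr14:69876669-69904662, is 27994 bases wide and was near the top in both marks, with 38.1, 35.3 and 36.5 of H3K27ac and 30.1, 30.7 and 29.1 of H3K4me1. Its ratio was that of the median locus (log2 −0.01, SE 0.06). The locus chr12:85511576-85524312 had a log2 ratio of −0.59 and chr2:27258710-27268731, the one of the 5 without H3K4me3, one of −0.53. The fifth, chr6:83050576-83053933, had −0.30 (edgeR adjusted p = 0.0272), a call that ended without any one of H3K27ac replicates 1 to 3 or H3K4me1 replicates 1 and 3, with adjusted p = 0.066, 0.051, 0.0948, 0.0801 and 0.0626.

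Union peaks were joined over the diets, so some loci rest on a peak called in chow. Both marks overlapped a peak of the high-fat-diet lists at 3390 loci (47.0%), and H3K27ac alone did at 1020 (14.2%). H3K4me1 alone did at 1284 (17.8%) and neither at 1514 (21.0%). These lists were called on the same libraries pooled and are no separate evidence. Their median log2 ratios were 0.02, 0.26, −0.18 and −0.04. Of the 1020 with H3K27ac alone 75.5% carried H3K4me3, and of the 1284 with H3K4me1 alone 35.5%. Among the 12 highest ratios 10 were in the high-fat-diet H3K27ac list and 3 in its H3K4me1 list, and among the 12 lowest 0 and 5. The choice of these loci by the ratio in the same libraries favours this pattern.

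Set against the rest of its own table, H3K27ac was lower where it met H3K4me1. The 7208 peaks had medians of 17.9, 18.2 and 18.1 CPM per kb, against 21.3, 20.5 and 20.8 at the 4027 peaks without H3K4me1, lower in 3 of 3 libraries, a difference that was not tested. They were wider, with a median of 4501 bases against 2640, and held 76.2% of all peak bases. H3K4me1 was at 14.0, 14.6 and 14.3 CPM per kb where it met H3K27ac and at 14.1, 13.8 and 14.0 in the 9023 peaks where it did not. At the edge of the rule, 23 loci overlapped by 200 bases or less, with median levels of 22.6 for H3K27ac and 13.6 for H3K4me1. Just outside it, 167 H3K27ac peaks lay within 200 bases of an H3K4me1 peak and had a median of 20.04 CPM per kb of H3K27ac.

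The ratio of the marks was largely shared by the diets. Across the 7208 loci the high-fat-diet and the chow ratio had a Spearman correlation of 0.82, measured on separate libraries of the same peaks. Of the 1607 loci above the median ratio on the high-fat diet, 1564 (97.3%) were also above it in chow, and of the 1328 below, 1293 (97.4%) were below it. This counts the side of the median alone, with no test in chow, and over all loci 5905 of 7208 (81.9%) were on the same side in both diets. None of the 12 highest ratios differed between the diets by the test of the mark by diet interaction (edgeR, lowest adjusted p = 0.235). Of the 12 lowest, the locus on chromosome 19 ranked first did (log2 −0.60, SE 0.14, adjusted p = 0.0467).

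By that test, 33 of the 7208 loci (0.458%) had a ratio that differed between the diets, 15 with a higher ratio on the high-fat diet (0.208%) and 18 with a lower one (0.25%). At an unadjusted p under 0.05 there were 1117. With the replicate number as a block 380 passed, but whether equal numbers share an animal is not known. In all 15, H3K27ac was higher and H3K4me1 lower on the high-fat diet, by medians of 0.34 and −0.41 log2 units, a pattern that the choice of loci by a higher ratio favours. In the 18, H3K27ac was lower in 18 and H3K4me1 higher in 16, by medians of −0.41 and 0.46. Over all 7208 loci, H3K27ac was higher and H3K4me1 lower on the high-fat diet at 1441, and the reverse held at 1964. H3K4me3 was present at 11 of the 15 and 5 of the 18, against 48.2% of all loci, a difference that was not tested. The count of 33 moved with single libraries: it was 10 without high-fat-diet H3K27ac replicate 3, 11 without high-fat-diet H3K4me1 replicate 2, and 396 without high-fat-diet H3K4me1 replicate 1. It was 4 and 7 without chow H3K27ac replicates 1 and 3, and 8 and 9 without chow H3K4me1 replicates 1 and 2.

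**Figure D5:**
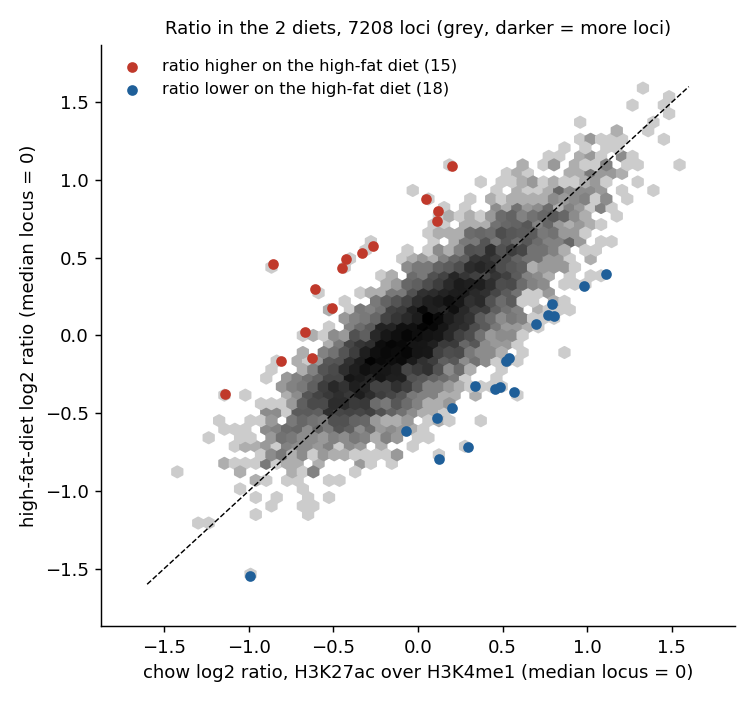
Centred log2 ratio of H3K27ac to H3K4me1 on the high-fat diet (vertical) against chow (horizontal) for 7208 loci in grey, darker where more loci lie, with the dashed line of equal ratios. The 15 loci with a higher ratio on the high-fat diet (red) lie above the cloud and the 18 with a lower one (blue) below it.

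The 3 loci with the lowest p in each direction, named by a rule added after the data were seen, did not overlap between the diets in H3K27ac, nor, with 1 exception, in H3K4me1. The choice by the lowest p favours such separation, so it is no further support. The share of all loci with such separation is not given here. At chr3:7612271-7613965 the high-fat diet had 20.9, 22.5 and 19.8 CPM per kb of H3K27ac, against 12.3, 8.87 and 12.5 in chow, with no overlap. Its H3K4me1 was 12.7, 11.8 and 12.9 on the high-fat diet and 16.8, 16.9 and 14.1 in chow, so the log2 ratio was higher by 1.23 (SE 0.19, adjusted p = 0.00182). At chr9:61218192-61223344 H3K27ac was 39.2, 29.5 and 34.3 on the high-fat diet and 23.7, 27.6 and 24.6 in chow, and H3K4me1 was 18.1, 18.4 and 22.6 against 28.4, 26.6 and 25.7 (log2 0.88, adjusted p = 0.00182). The third, chr15:78755237-78759624, had no H3K4me3, and its diets overlapped in H3K4me1 but not in H3K27ac. There H3K27ac was 26.7, 22.7 and 26.4 against 16.4, 14.1 and 15.4 in chow, while H3K4me1 was 27.3, 25.4 and 26.95 against 27.4, 27.3 and 25.3 (log2 0.71, adjusted p = 0.00739).

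On the other side, chr10:84271452-84274690 had 8.66, 9.77 and 13.1 CPM per kb of H3K27ac on the high-fat diet and 17.5, 14.3 and 15.2 in chow. H3K4me1 was 13.8, 15.8 and 13.2 on the high-fat diet and 9.88, 9.26 and 11.05 in chow, and neither mark overlapped between the diets (log2 −1.07, SE 0.19, adjusted p = 0.00841). At chr17:65089669-65095285 H3K27ac was 15.2, 15.6 and 13.7 against 21.4, 19.8 and 20.03 in chow, and H3K4me1 was 11.6, 15.05 and 13.2 against 10.55, 11.25 and 11.5 (log2 −0.73, adjusted p = 0.00942). At chr14:52557975-52565234, with H3K4me3, H3K27ac was 16.8, 21.9 and 19.9 against 25.1, 22.6 and 24.0, and H3K4me1 12.2, 14.1 and 12.2 against 9.26, 10.3 and 9.14 (log2 −0.70, adjusted p = 0.0127). The call at the locus on chromosome 10 ended without chow H3K27ac replicate 1 (adjusted p = 0.0504). On chromosome 17 it ended without high-fat-diet H3K27ac replicate 3 (adjusted p = 0.056), chow H3K27ac replicate 1 (adjusted p = 0.0515) or chow H3K4me1 replicate 1 (adjusted p = 0.0602). On chromosome 14 it ended without high-fat-diet H3K4me1 replicate 2 (adjusted p = 0.0535), chow H3K27ac replicates 1 or 3 (adjusted p = 0.0592 and 0.05) or chow H3K4me1 replicate 1 (adjusted p = 0.0648).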

How the data were processed

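Counts per union peak of H3K27ac and H3K4me1, raw whole numbers, were deposited by the authors, as were gene counts of the high-fat-diet mRNA libraries. The build was mm9, and MACS 1.4.0rc2, Bowtie 0.12.7, DESeq2 and bedtools had been used, per the submitters' processing notes. The peak lists give a fold enrichment, a ratio, per the file headers from pooled replicates against IgG at a p-value limit of 1e-06, and the deposited lists had been filtered at an FDR of 10 percent. No IgG signal was subtracted from the levels.

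From these files, each table was scaled with TMM factors (edgeR 4.0.16, R 4.3.3), the offset of a count was the scaled total times the peak length, and the median log2 ratio over loci was subtracted. The marks were compared with edgeR's quasi-likelihood test, with mark as the only term and a 2-fold margin (glmTreat), and the diets by the mark by diet interaction. P-values are two-sided, with Benjamini-Hochberg adjustment over the 7208 loci and a threshold of 0.05. The fits were also run on counts simulated from estimates of these same data, with libraries drawn independently. That run checks the code and is no support for the results. DESeq2 1.42.0 and limma 3.58.1 served as alternatives, beside other scaling, overlap rules and left-out libraries. Loci were named as the 12 highest and 12 lowest ratios among called loci whose centred libraries did not overlap between the marks, the 5 highest levels of each mark and, added later, the 3 diet interactions with the lowest p in each direction. Same-numbered high-fat-diet libraries of the marks deviated together over loci (r = 0.44, 0.31 and 0.22, the numbers being those of the labels). Pairs of unequal number ran from −0.43 to 0.25, so not every equal pair was above every unequal one. Fits with the replicate number as a block are given where they move a count. The loci and lists were chosen with earlier results of these data known. Promoter tables and the authors' tables of differential results were not used here.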

Additional observations from a re-analysis of the deposited data

Results flagged for a closer look

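The ratio of H3K27ac to H3K4me1 differed between the diets by the test of the interaction itself at 33 loci, and the 6 with the lowest p are listed for that reason. The log2 difference, high-fat diet minus chow, was 1.23 at chr3:7612271-7613965, 0.88 at chr9:61218192-61223344 and 0.71 at chr15:78755237-78759624. It was −1.07 at chr10:84271452-84274690, −0.73 at chr17:65089669-65095285 and −0.70 at chr14:52557975-52565234. The last 3 lost their call when certain single libraries were left out.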

How the results depend on the processing

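At the 2-fold margin the counts toward H3K27ac and H3K4me1, 1 and 0, were 39 and 0 without centring, 2 and 1 with 50% reciprocal overlap or with the longest overlap alone, 0 and 0 within the high-fat-diet lists, with DESeq2 or with limma voom, and 3 and 1 with the replicate block. They ran from 0 to 4 and from 0 to 1 with a library left out. They were 104 and 14 at a 1.5-fold margin (158 and 35 with the block) and 1607 and 1328 without a margin. The counts without a margin were 3731 and 261 without centring and 633 and 543 within the high-fat-diet lists, which hold 3390 loci, and otherwise kept within 1.5 times. The 33 diet interactions became 53 with the longest overlap alone, 55 with DESeq2, 380 with the replicate block and 4 to 396 with a library left out. Chow libraries of equal number did not deviate together (r = −0.09, 0.10 and −0.04). Whether equal numbers share an animal is not known for either diet, and these values do not settle it. The causes were not tested. The correlation of the marks and the H3K4me3 contrast kept their direction under every alternative run. Of 545 values of named loci under alternatives, 533 kept direction and side of the threshold, 8 lost their call and 4 changed sign. These 4 are at chr14:69876669-69904662, at 0.29 without centring, 0.0048 with pooled tag totals, 0.0282 without H3K27ac replicate 2 and 0.0054 without H3K4me1 replicate 1, where leaving out single libraries gave −0.0423 to 0.0282. The total of counts in peaks was lowest in high-fat-diet H3K27ac replicate 1, at 2037101. The sequencing depth of single libraries was not available here, since the peak lists give tag totals of pooled replicates only.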
